A study of Homo sapiens with 40 samples.

Results

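RAB GTPase mRNAs were followed through 40 poly(A)-selected, strand-specific RNA-Seq libraries of HEK293 cells, an established human embryonic kidney line. Members were all gene symbols made of RAB, a number and at most 1 further letter that reached a mean of at least 1 CPM (counts scaled to a library total of 1e6) in the 4 input libraries of cells with control siRNA. Of 61 such symbols among 55765 in the count files, 46 met the level and 15 did not. RAB24 at 1.25 CPM and RAB3A at 1.47 CPM lay just inside it, and RAB40A at 0.924 CPM and RAB4B at 0.692 CPM just outside. All 46 members passed the low count filter of every fit.

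RNA immunoprecipitation (RIP) with antibodies to the RNA helicases eIF4A1, eIF4A2 and DDX6 gave 3 libraries for each immunoprecipitate (IP) and 3 of total RNA. Sucrose gradients were run after transfection with CNOT1 siRNA, which targets the scaffold of the Ccr4-Not deadenylase, or control siRNA, and input, subpolysomal (pooled fractions 1 to 5) and polysomal RNA (pooled fractions 6 to 11) each gave 4 libraries per siRNA. A further set of 4 libraries held total RNA after transfection with TNRC6A/B siRNA, against the GW182 proteins of the miRNA pathway, or control siRNA, 2 of each. The study asked how eIF4A2 and Ccr4-Not act on translation, and it followed RAB12 singly. All samples came from 1 cell line, the labels do not say whether replicates were separate cultures, and no IP with an unspecific antibody was analysed here, so p-values measure the spread between these libraries.

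RAB proteins are small GTPases that give transport vesicles and organelles their identity. Guanine nucleotide exchange factors (GEFs) load them with GTP on a membrane, GTP-bound RABs recruit effectors such as tethers and motors, and GTPase-activating proteins (GAPs) end the cycle, after which GDP dissociation inhibitors (GDIs) extract the prenylated RAB from the membrane. RAB1 and RAB2 proteins serve the early secretory pathway, RAB5 the early endosome, RAB7A the late endosome and lysosome, RAB11 the recycling endosome, and RAB3 and RAB27 regulated secretion.

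Library totals ran from 15.35 M to 46.02 M counts (M, 1e6). CNOT1 mRNA fell in the cells with CNOT1 siRNA, from between 629.9 and 713.0 CPM to between 36.9 and 41.5 CPM in input RNA and from between 233.2 and 315.4 CPM to between 73.2 and 89.1 CPM in subpolysomal RNA. In polysomal RNA it was at 471.2 to 502.1 CPM in replicates 1, 2 and 4 of control siRNA and at 24.1 to 31.7 CPM in those of CNOT1 siRNA. The polysomal library labelled control siRNA replicate 3 held 28.4 CPM of CNOT1 and the polysomal library labelled CNOT1 siRNA replicate 3 held 632.9 CPM, the opposite of their labels. Both libraries were therefore left out of the fit reported here, which holds 22 gradient libraries, and the counts and named values on polysomal RNA are followed by those for all 24 libraries as labelled. TNRC6A fell from 178.2 and 188.6 CPM to 40.5 and 64.7 CPM, and TNRC6B from 67.6 and 73.1 CPM to 17.7 and 26.3 CPM, in the cells with both siRNAs. Of the HEK293 markers examined in control input, VIM (453.3 to 486.7 CPM), CDH2, KRT8 and KRT18 were present, and the renal marker PAX2 lay at only 0.112 to 0.292 CPM. The leukocyte marker PTPRC was at 0 and CD3E, HBB and ALB at no more than 0.0559 CPM, whereas COL1A1 reached 9.03 CPM.

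Levels of the members in control input RNA covered more than 2 orders of magnitude when compared per length of exon. RAB1B (77.3 ± 4.42 CPM per kb, SD, n = 4) and RAB14 (62.4 ± 1.68), which acts between Golgi and endosomes, stood highest on this measure, followed by RAB10 (47.7 ± 1.63), RAB1A (42.4 ± 1.05) and RAB7A (38.04 ± 2.24). None of these 5 neighbours in the order overlapped between libraries, and together they made up 43.8% of the summed level of all members. The order depends on the length used. For RAB7A the union of exons had 7194 nt. Its transcript used for sequences had 185, 624 and 1376 nt of 5′UTR, coding sequence and 3′UTR. For RAB1B the union had 1950 nt and these parts 41, 606 and 1254 nt. Without division by length, as CPM of library totals, RAB14 (271.8), RAB7A (253.6), RAB10 (161.7) and RAB11A (143.9) stood above RAB1B (139.7). RAB11A (27.3 CPM per kb) and RAB6A (27.3), a Golgi RAB, could not be told apart, nor could RAB31 (15.3), RAB4A (14.9), RAB2A (14.8), RAB12 (14.6) and RAB5A (13.9), whose neighbours overlapped. The lowest were the secretory RABs RAB27B (0.304 ± 0.085) and RAB3C (0.286 ± 0.0543). Within paralogue sets, RAB1B exceeded RAB1A, RAB11A exceeded RAB11B (8.46), RAB8A (22.6) exceeded RAB8B (6.85), RAB2A exceeded RAB2B (6.18) and RAB6A exceeded RAB6B (1.81), each without overlap of the 4 libraries.

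**Figure D1:**
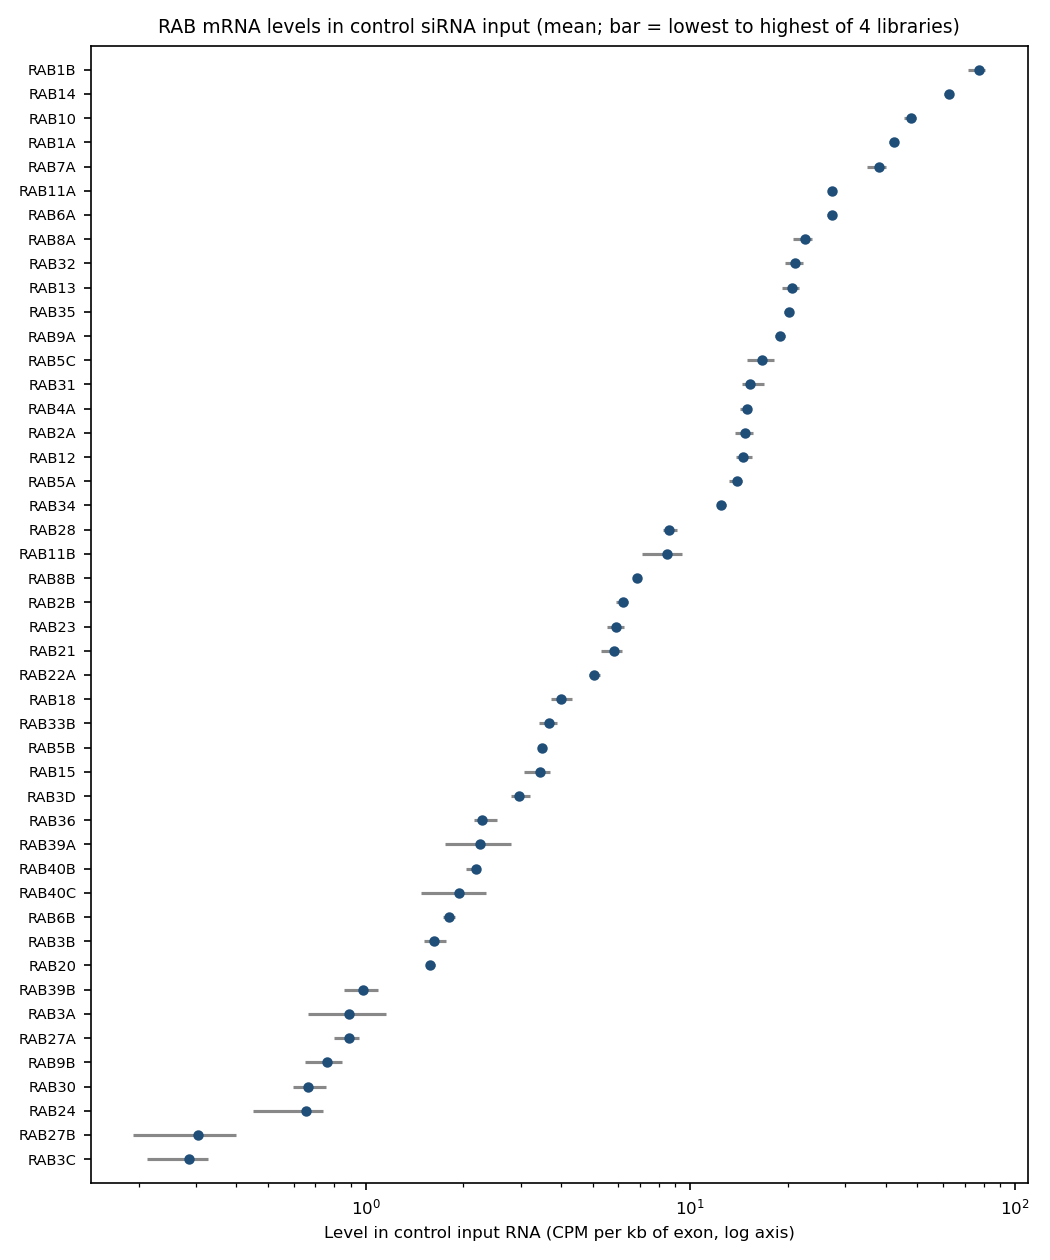
Level of each of the 46 RAB mRNAs in input RNA of cells with control siRNA, on a log axis in CPM per kb of exon. Points are means and bars run from the lowest to the highest of 4 libraries. RAB1B at 77.3 stands at the top and RAB3C at 0.286 at the bottom.

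Counts of some members may hold reads of other genes, or may lack reads of their own that also match another gene. How the counting treated such shared reads was not stated, and the direction was not tested. Levels of members with large overlaps, among them RAB24, RAB5C and RAB13, may therefore be too high or too low, which bears on selection and order by level. In GENCODE release 44 on GRCh37, 57.8% of the exon bases of RAB23 lie opposite exons of another gene, as do 43.8% for RAB1B and 39.7% for RAB8A, and the strand option of the counting was not stated. Exons of other genes on the same strand cover 44.8% of RAB24 exons (MXD3), 28.8% of those of RAB5C and 24.8% of those of RAB13. Overlaps included, 58.2% of the 75-base stretches of RAB23 also occur in another gene on either strand, as do 56.4% for RAB24, 55.9% for RAB13, 41.4% for RAB5C, 40.1% for RAB8A, 28.2% for RAB1B and 18.8% for RAB6A. RAB12 (chr18:8609435-8639381, plus strand) shares 1.98% of its 75-base stretches and RAB40B, RAB28, RAB31, RAB32 and RAB7A share none.

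Because the study was concerned with purine-rich motifs ahead of the start codon, the 30 bases before the annotated start codon are shown for the members that stood highest or lowest in the eIF4A2 IP and have such a window within 1 exon. They are read 5′ to 3′ from GRCh37 (hg19) in the sense of the mRNA. Capitals mark any of 8 purine tetramers, searched on the sense strand with overlaps allowed. These tetramers were AAGA together with AGAA, further GAAA together with GAGA, further AGAG together with GGAA, and further AAAA together with GAAG, each searched by itself. Counts of tetramers, as in the densities given below, took matches without overlap. The members highest in the eIF4A2 IP were RAB40C (chr16:640262-640291, plus strand), RAB40B (chr17:80656473-80656502, minus strand), RAB28 (chr4:13485775-13485804, minus strand) and RAB15 (chr14:65438795-65438824, minus strand). RAB2B (chr14:21945032-21945061, minus strand) was added as the only member called higher that holds a tetramer in a window within 1 exon.
RAB40C: cggccggcgcggggcgcaggcggcgcggcc
RAB40B: gggcatgggtgggggcgccgggccgtcacg
RAB28: tcgaggggcgggcctggttcccgggacacc
RAB15: ccgcagttcccggccccgctggccccagtc
RAB2B: gcggacccGGAAcccAGAGgacgcgacacc
The members lowest in the eIF4A2 IP with such a window were RAB13 (chr1:153958713-153958742, minus strand), RAB5C (chr17:40282521-40282550, minus strand) and RAB1A (chr2:65357050-65357079, minus strand).
RAB13: acccctcccccggctcccccggtgtccgcc
RAB5C: gctctctggaccactacagctggacgggca
RAB1A: ggcggtggcggcggcggcagctgcagtgac
Of these 8 windows only that of RAB2B held a tetramer, and RAB2B was shown because it did. RAB5A, the next lowest member in the eIF4A2 IP (-0.88), has a window within 1 exon that holds GAAA. Among all 43 members with a 5′UTR of at least 30 bases, 18 (41.9%) had a tetramer in the window, against 45.1% of 11391 mRNAs tested. RAB12 and RAB8A are not among the 43, since their annotated 5′UTRs are 3 and 13 bases long. The windows of RAB7A, called lower, and of RAB36, called higher, span an exon junction and hold GAAG and GGAAGA in turn.

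To ask which RAB mRNAs were recovered with each helicase, the IPs were set against total RNA. RAB40B and RAB40C, whose proteins carry a SOCS box and act in Cullin ubiquitin ligases, RAB28, a ciliary RAB, RAB15, a recycling RAB, and RAB12, which directs membrane proteins to lysosomes, were the members highest in the eIF4A1 and eIF4A2 IPs. In the DDX6 IP, RAB31 (1.19) and RAB22A (1.10) stood above RAB15 (0.93). RAB13, RAB8A, RAB5C, RAB7A and RAB1A were the lowest in the eIF4A2 IP. In the eIF4A1 IP, 12 members were higher and 10 lower than in total RNA, compared to 26.1% and 26.5% of all 17474 genes. In the eIF4A2 IP, 12 were higher and 16 lower (24.5% and 25.8% of all genes). In the DDX6 IP, 17 were higher and 7 lower (22.7% and 23.3% of all genes). The median log2 fold change of the members was 0.04 for eIF4A1, -0.20 for eIF4A2 and 0.17 for DDX6, where the median of all genes was 0.04, 0.01 and 0.01. The shares of members therefore lay near those of all genes in the eIF4A1 IP, and above them for lower members in the eIF4A2 IP and for higher members in the DDX6 IP. The excess in the eIF4A2 IP depended on the fit. There 12 members were lower with only the compared libraries and 12 without eIF4A2 IP replicate 3, near the shares of all genes (25.1% and 24.3%). With the replicate block 20 were lower (31.9% of all genes). The 3 IPs were divided by the same total RNA libraries, so their values are given side by side and are not independent.

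RAB40C had 24.3, 26.02 and 17.3 CPM in total RNA, against 95.4, 79.96 and 43.8 CPM in the eIF4A1 IP, 96.95, 89.9 and 87.9 in the eIF4A2 IP and 54.6, 53.7 and 46.2 in the DDX6 IP. Every IP library lay above every total RNA library, with a log2 fold change of 1.69 ± 0.24 (SE, n = 3 against 3) for eIF4A1 (adjusted p = 7.52e-05, edgeR quasi-likelihood test), 2.02 ± 0.24 for eIF4A2 (1.97e-05) and 1.19 ± 0.24 for DDX6 (0.0013). RAB40B had 26.8, 25.96 and 24.7 CPM in total RNA, against 71.8, 101 and 65.5, 67.4, 91.04 and 75.2, and 65.03, 98.04 and 77.2 CPM in the eIF4A1, eIF4A2 and DDX6 IPs in turn. The groups did not overlap, and the log2 fold changes of RAB40B were 1.62, 1.59 and 1.63. RAB28 had 22.7, 23.2 and 27.6 CPM in total RNA and 65.4, 69.5 and 67.6, 52.3, 64.9 and 61.5, and 61.7, 67.8 and 65.5 CPM in the 3 IPs in the same order. It had the smallest SE of these (0.13) with log2 fold changes of 1.46, 1.28 and 1.41, and all its IP libraries stood above all its totals.

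RAB12 had 36.3, 36.8 and 34.3 CPM in total RNA. It rose to 80.7, 106 and 90.7 CPM in the eIF4A1 IP (log2 fold change 1.37 ± 0.16 (SE), adjusted p = 1.88e-05), to 68, 98.7 and 76.5 CPM in the eIF4A2 IP (log2 fold change 1.18 ± 0.16 (SE), adjusted p = 5.25e-05) and to 88.2, 103 and 83.9 CPM in the DDX6 IP (log2 fold change 1.36 ± 0.16 (SE), adjusted p = 3.79e-05). The lowest RAB12 value in an IP was above its highest value in total RNA. Further members called higher in each IP, with log2 fold changes for eIF4A1, eIF4A2 and DDX6 in this order, were RAB15 (1.43, 1.22 and 0.93), RAB22A of the early endosome (0.97, 0.80 and 1.10), RAB31, which acts between Golgi and endosomes (0.75, 0.50 and 1.19), RAB2B (0.89, 0.84 and 0.78) and RAB36 (0.94, 0.90 and 0.71). RAB6B, RAB5B and RAB3D were also called in each, with log2 fold changes between 0.45 and 0.83. The calls of RAB5B and RAB31 in the eIF4A2 IP were the least firm of these, each lost in 5 of 6 fits that left out 1 library (each library but eIF4A2 IP replicate 1).

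The lower members had smaller changes. RAB8A, which serves transport from the Golgi to the plasma membrane and the cilium, had 112, 119.8 and 80.7 CPM in total RNA, 46.1, 71.1 and 54.9 in the eIF4A1 IP (log2 fold change -0.86 ± 0.20 (SE), adjusted p = 0.00277) and 44.9, 58.1 and 42.7 in the eIF4A2 IP (log2 fold change -1.10 ± 0.20 (SE), adjusted p = 5.13e-04). In the DDX6 IP it had 80.3, 101 and 79.1 CPM and was not called (-0.26, adjusted p = 0.291). RAB13, a RAB of tight junction traffic, fell from 69.95, 68.99 and 57.2 CPM to 34.05, 38.5 and 17.7 in the eIF4A2 IP (log2 fold change -1.12 ± 0.25 (SE), adjusted p = 0.00192) and to 46.9, 44.3 and 32.8 in the DDX6 IP (log2 fold change -0.66 ± 0.24 (SE), adjusted p = 0.0394). RAB5C fell from 53.3, 70.2 and 34.5 CPM to 21.2, 34.2 and 19.9 CPM in the eIF4A2 IP (log2 fold change -1.07 ± 0.28 (SE), adjusted p = 0.00635). No value in the IP reached any total in these 3 cases, though the totals of RAB5C were spread widely among themselves, and reads shared with overlapping genes (above) touch RAB8A, RAB13 and RAB5C.

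RAB7A, RAB1A and RAB5A were called lower in each IP, at -0.65, -1.05 and -0.64 for RAB7A, -0.50, -0.94 and -0.55 for RAB1A and -0.58, -0.88 and -0.40 for RAB5A in the order eIF4A1, eIF4A2 and DDX6, as was RAB10 (-0.59, -0.62 and -0.43), which serves exocytosis. The calls of RAB1A in the eIF4A1 IP (lost without total RNA replicate 2 or eIF4A1 IP replicate 1), of RAB7A in the DDX6 IP (lost without total RNA replicate 2), of RAB5A in the DDX6 IP (lost without total RNA replicate 2 or DDX6 IP replicate 1 or 3) and of RAB10 in the DDX6 IP (lost without total RNA replicate 2 or DDX6 IP replicate 1 or 2) each rested on single libraries. Of the low secretory mRNAs, RAB3C had 1.66, 2.01 and 1.61 CPM in total RNA, 1.02, 0.687 and 0.967 in the eIF4A1 IP (log2 fold change -0.98 ± 0.24 (SE), adjusted p = 0.00414) and 0.724, 1.14 and 1.09 in the DDX6 IP (log2 fold change -0.83 ± 0.24 (SE), adjusted p = 0.0119). RAB27B had 1.16, 1.09 and 1.40 CPM in total RNA and 0.501, 0.687 and 0.893 in the eIF4A1 IP (log2 fold change -0.81 ± 0.25 (SE), adjusted p = 0.0139). RAB3B had 21.7, 24.8 and 30.1 CPM in total RNA and 15.4, 11.96 and 18.9 in the DDX6 IP (log2 fold change -0.72 ± 0.22 (SE), adjusted p = 0.0168). None of these groups overlapped. The call of RAB3C in the eIF4A1 IP held in each fit that left out 1 library (highest edgeR adjusted p 0.0234), but the other calls rest on single libraries. RAB27B was not called without eIF4A1 IP replicate 1 (adjusted p = 0.0603), RAB3C not without DDX6 IP replicate 1 (0.0559), RAB3B not without total RNA replicate 3 (0.0717) or DDX6 IP replicate 2 (0.0764). RAB13 in the DDX6 IP was not called without any 1 of total RNA replicates 1 (0.105) and 2 (0.0995) and DDX6 IP replicates 2 (0.0678) and 3 (0.14). The count of members lower in the DDX6 IP went from 7 to 3 without total RNA replicate 2 (19.8% of all genes lower). It went to 4 without DDX6 IP replicate 1 (20.5%) or 2 (18.8%).

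**Figure D2:**
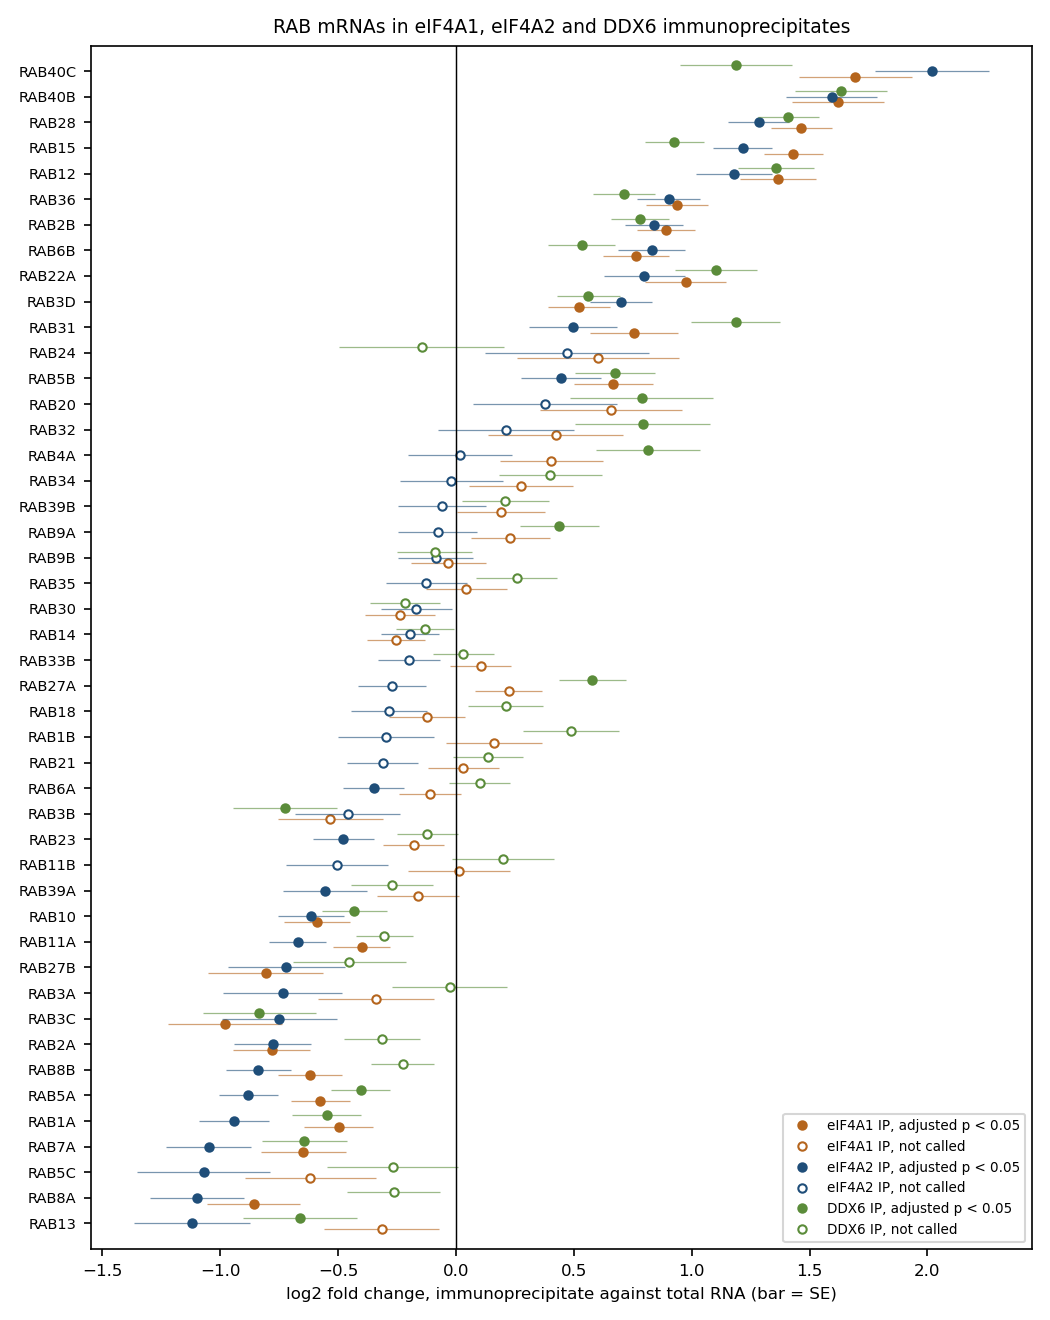
Log2 fold change of each RAB mRNA in the eIF4A1, eIF4A2 and DDX6 IPs against total RNA (3 libraries per group, bars are SE, filled points have an adjusted p below 0.05). RAB40C, RAB40B, RAB28, RAB15 and RAB12 lie to the right in all IPs, and RAB7A, RAB1A and RAB5A to the left.

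By role, the members of exocytosis and regulated secretion had the lowest medians, with 7 of 10 lower and 1 higher in the eIF4A2 IP (median log2 fold change -0.73) and 4 of 10 lower and 2 higher in the DDX6 IP (-0.35). Of the 7, the calls of RAB3A and RAB27B were each lost in 4 of 6 fits that left out 1 library, and that of RAB3C in 3. RAB3A and RAB27B were also not called in the eIF4A2 IP with only the compared libraries in the fit. Of all genes 25.8% were lower and 24.5% higher in the eIF4A2 IP, and 23.3% and 22.7% in the DDX6 IP. RAB3D, a secretory granule RAB, was higher in both, and RAB27A in the DDX6 IP (0.58). Early endosome members had the highest medians among the named roles, where the eIF4A2 IP held 3 of 7 higher and 2 lower (0.38) and the DDX6 IP 4 of 7 higher and 1 lower (0.67). Of these higher calls, those of RAB5B and RAB31 in the eIF4A2 IP and of RAB20 in the DDX6 IP were not firm. Each was lost in 5 of 6 fits that left out 1 library. Within the RAB5 set, RAB5A and RAB5C were lower in the eIF4A2 IP whereas RAB5B was higher, by a call also lost without the low count filter. Within the RAB2 set RAB2A (-0.78) was lower and RAB2B (0.84) higher. The RAB6 set was split in the same way (-0.35 for RAB6A and 0.83 for RAB6B), but the call of RAB6A was not firm. It was lost in 5 of 6 fits that left out 1 library, without the low count filter and with only the compared libraries.

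The direct contrast of the eIF4A2 IP with the eIF4A1 IP called no member higher or lower (edgeR, 0.973% and 0.0858% of all genes). At an unadjusted p below 0.05, 0 members were higher and 12 lower, as were 1647 and 1469 of all genes, and DESeq2 called 0 members higher and 1 lower (3.1% and 0.91% of all genes). The median log2 fold change of the members was -0.22, where that of all genes was -0.02. With the replicate number as a block, 9 members were lower and 0 higher (8.70% and 7.12% of all genes), of which RAB13 (-0.86, adjusted p = 0.00914), RAB27A (-0.49) and RAB5C (-0.47) differed most. RAB12 had a log2 fold change of -0.19 ± 0.16 (adjusted p = 0.556) and its libraries overlapped.

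Against the DDX6 IP, 1 member was higher and 13 were lower in the eIF4A2 IP (9.82% and 11.3% of all genes), with a median of -0.36 where all genes had 0.00. RAB40C, the higher member, had 54.6, 53.7 and 46.2 CPM in the DDX6 IP and 96.95, 89.9 and 87.9 in the eIF4A2 IP (log2 fold change 0.83 ± 0.23 (SE), adjusted p = 0.0251). RAB27A, which docks secretory granules and melanosomes, had 10.01, 10.5 and 9.22 CPM and 5.13, 6.00 and 5.35 CPM (log2 fold change -0.85 ± 0.14 (SE), adjusted p = 0.00309). RAB8A had 80.3, 101 and 79.1 and 44.9, 58.1 and 42.7 CPM (log2 fold change -0.84 ± 0.20 (SE), adjusted p = 0.0123). RAB4A, a RAB of fast recycling, had 80.7, 130.5 and 93.8 and 50.4, 72.3 and 52.7 CPM (log2 fold change -0.80 ± 0.22 (SE), adjusted p = 0.0226). The libraries of the IPs did not overlap for any of these 4. The remaining lower members were RAB1B (-0.78), RAB11B (-0.71), RAB31, RAB8B, RAB9A, RAB18, RAB5A, RAB6A, RAB21 and RAB11A (-0.37). RAB12 did not pass (-0.18 ± 0.16, adjusted p = 0.443). With the replicate block, 2 members were higher and 24 lower (18.5% and 22% of all genes), the added higher member being RAB15 (0.29, 0.0333). Single libraries moved these counts. The lower members fell from 13 to 2 without eIF4A2 IP replicate 1 (4.07% of all genes lower) or DDX6 IP replicate 2 (4.15%). They fell to 4 without eIF4A2 IP replicate 3 (6.7%), to 8 without DDX6 IP replicate 1 (8.26%) and to 6 without DDX6 IP replicate 3 (8.14%). Where 2 of 46 members were lower, their share lay near that of all genes. RAB40C was no longer called without eIF4A2 IP replicate 1 or without any 1 DDX6 IP library (highest adjusted p 0.08), RAB8A not without eIF4A2 IP replicate 1 (0.0546) or DDX6 IP replicate 2 (0.0575), and RAB4A not without eIF4A2 IP replicate 1 (0.093) or 3 (0.0701) or DDX6 IP replicate 2 (0.109).

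To ask how RAB mRNAs were distributed between untranslated and translated pools, polysomal RNA was compared with subpolysomal RNA in cells with control siRNA. Values are relative to the other mRNAs of the same library. RAB mRNAs as a group leaned to the polysomes, with 29 members higher and 9 lower in polysomal RNA beside 33.7% and 38.4% of all 17115 genes, and a median log2 ratio of 0.73 where all genes had -0.10. With all 24 libraries as labelled the counts were 28 and 9 (34.8% and 37% of all genes). The share of counts that fell on the members was 0.137 to 0.157% in the 4 subpolysomal libraries and 0.270 to 0.305% in the 4 polysomal libraries, doubted library included. Same-numbered polysomal and subpolysomal libraries of 1 siRNA were also set against each other, and such a pair is called a gradient here. The labels do not say that a pair came from the same gradient, and the control pairs did not deviate together (r from -0.678 to 0.282). In these pairs the median log2 polysomal/subpolysomal ratio of the members exceeded that of all genes by 0.71 ± 0.08 (SD, n = 3 gradients, 0.66 to 0.81). With replicate 3 as labelled it was 0.73 ± 0.08 (n = 4).

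RAB7A stood out with 54.4, 63.3, 48.4 and 54.7 CPM in the subpolysomal libraries and 379, 421 and 384 CPM in polysomal replicates 1, 2 and 4 (log2 fold change 2.84 ± 0.09 (SE), adjusted p = 6.33e-16). RAB2A had 20.4, 27.7, 16.7 and 18.5 CPM and 93.8, 109 and 103 CPM (log2 fold change 2.29 ± 0.12 (SE), adjusted p = 1.41e-13). RAB1A had 46.6, 51.8, 34.05 and 37.8 CPM and 170.0, 196 and 185 CPM (log2 fold change 2.11 ± 0.12 (SE), adjusted p = 7.54e-13). Every polysomal value of these 3 mRNAs was above every subpolysomal value, and the polysomal library labelled control siRNA replicate 3 held 357, 97.3 and 123 CPM of them. Their log2 fold changes with all 24 libraries were 2.79, 2.26 and 1.97. RAB40B went the other way, with 36.1, 50.9, 50.2 and 47.4 CPM in subpolysomal and 12.2, 10.5 and 10.2 CPM in polysomal RNA (log2 fold change -2.07 ± 0.15 (SE), adjusted p = 1.52e-11). RAB33B, a Golgi RAB that also binds the autophagy machinery, had 46.4, 50.9, 33.1 and 41.9 and 14.2, 15.99 and 12.9 CPM (log2 fold change -1.59 ± 0.13 (SE), adjusted p = 3.25e-10). RAB39A had 9.41, 9.29, 5.20 and 5.58 and 2.94, 3.05 and 2.84 CPM (log2 fold change -1.33 ± 0.25 (SE), adjusted p = 5.09e-05). Their groups did not overlap either, and the same library held 5.01, 14.98 and 3.15 CPM. The log2 fold changes of these 3 with all 24 libraries were -2.29, -1.58 and -1.32, each called. The further lower members were RAB15 (-1.19), RAB24 (-1.04), RAB2B (-0.74), RAB28 (-0.60), RAB22A (-0.36) and RAB4A (-0.34), whose call was lost without subpolysomal replicate 2 or any 1 of the 3 polysomal libraries. All 6 were called lower with all 24 libraries too, RAB4A at -0.56. RAB12 was higher in polysomal RNA, with 25.9, 32.04, 19.1 and 22.3 CPM against 44.5, 48.8 and 45.01 CPM (log2 fold change 0.89 ± 0.15 (SE), adjusted p = 1.02e-05), and with all 24 libraries its log2 fold change was 0.76 (adjusted p = 1.42e-04). RAB31 was called (0.30) although its groups overlapped, and it was not called with all 24 libraries, where it had 0.04 (adjusted p = 0.902).

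By role, 7 of 9 early secretory and Golgi members were higher and 2 lower (RAB2B and RAB33B), and 7 of 10 members of exocytosis and secretion were higher with none lower, beside 33.7% and 38.4% of all genes. These were, with all 24 libraries, 7 and 2 of 9, and 6 and 0 of 10. Paralogues differed. In each of the 3 gradients the log2 ratio of RAB2A exceeded that of RAB2B, by 2.98 ± 0.113 (SD), and that of RAB40B was below that of RAB40C (difference -2.67 ± 0.624). RAB5A was below RAB5C (-1.81 ± 0.469) and RAB3A below RAB3D (-1.72 ± 0.460). For RAB1A and RAB1B the difference was 0.25 ± 0.868 and changed sign between gradients, so they could not be told apart, and neither could RAB6A and RAB6B (-0.02 ± 0.228) or RAB27A and RAB27B (-0.04 ± 0.327). With 3 gradients an exact permutation test cannot reach p below 0.05, and none was run. With replicate 3 as labelled (n = 4) the differences were 2.90 ± 0.177 for RAB2A less RAB2B, -2.88 ± 0.660 for RAB40B less RAB40C, -1.53 ± 0.679 for RAB5A less RAB5C and -1.74 ± 0.378 for RAB3A less RAB3D. They again changed sign between gradients for RAB1A less RAB1B (0.53 ± 0.910), RAB6A less RAB6B (-0.01 ± 0.187) and RAB27A less RAB27B (-0.46 ± 0.883).

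Set against the IPs, which came from other libraries, the 16 members lower in the eIF4A2 IP had a median log2 polysomal/subpolysomal ratio of 1.19, with 12 higher and 1 lower in polysomal RNA, and the 12 members higher in the eIF4A2 IP had 0.29, with 6 higher and 5 lower. The medians were, over all 24 gradient libraries, 1.12, with 13 higher and 1 lower, and 0.18, with 5 and 5. Across the 46 members the log2 fold change in the eIF4A2 IP and the polysomal ratio had r = -0.43 and rho = -0.39, and across 16473 genes r = -0.29 and rho = -0.38. For the eIF4A1 IP the values over the members were r = -0.47 and rho = -0.41 (all genes -0.11 and -0.25), and for the DDX6 IP r = -0.36 and rho = -0.30 (all genes -0.03 and -0.18). From all 24 gradient libraries the members gave r = -0.43 and rho = -0.38 for eIF4A2, -0.49 and -0.42 for eIF4A1 and -0.38 and -0.32 for DDX6. These are descriptions over genes, which share the same libraries, their depth and base composition, and genes are not replicates. The 6 members higher both in the eIF4A2 IP and in polysomal RNA were RAB12, RAB3D, RAB5B, RAB6B, RAB31 and RAB36, and RAB39A was lower in both.

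**Figure D3:**
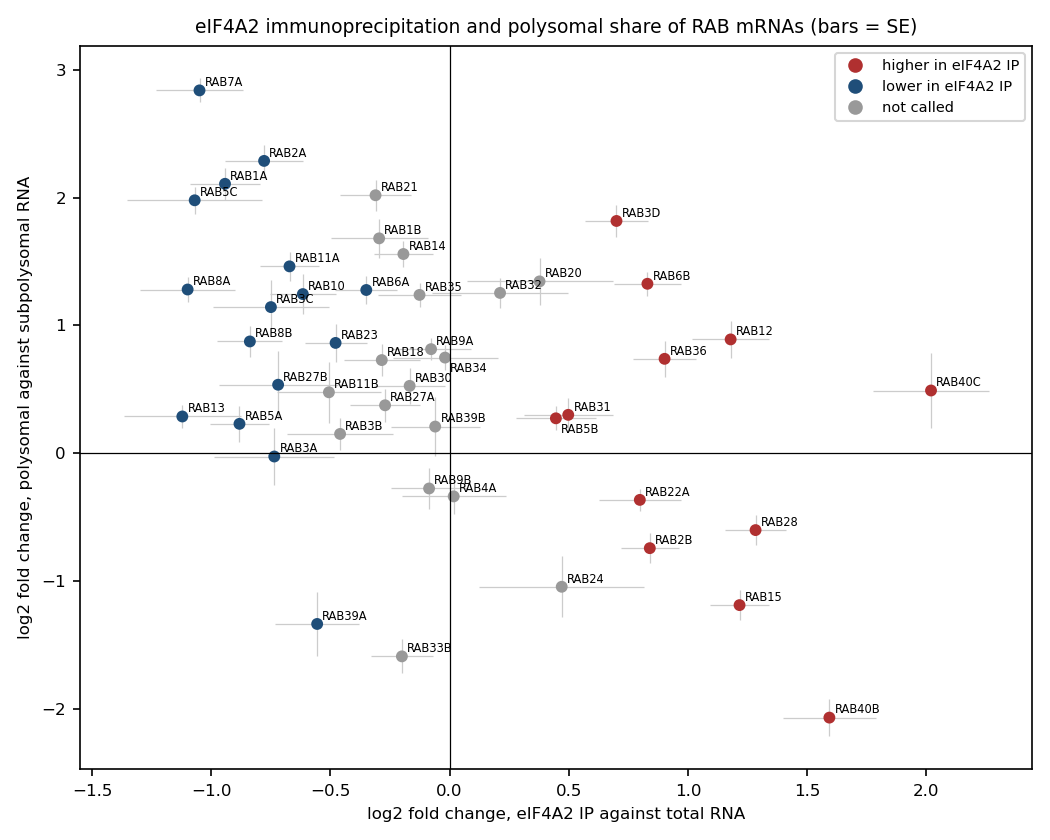
Log2 fold change of each of 46 RAB mRNAs in the eIF4A2 IP against total RNA (x axis, 3 libraries per group) and in polysomal against subpolysomal RNA with control siRNA (y axis, 3 against 4 libraries). Bars are SE and colours give the call in the eIF4A2 IP. RAB7A lies at the upper left with a polysomal ratio of 2.84 and RAB40B at the lower right with -2.07.

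To ask what loss of CNOT1 did to RAB mRNA levels, input RNA of cells with CNOT1 siRNA was compared with control siRNA. In these bulk libraries fewer cells with an mRNA and less of it per cell cannot be told apart. Of the members, 12 rose and 12 fell (19.6% and 21.1% of all genes), and the median was -0.05 where all genes had -0.03. With all 24 libraries the counts were 8 and 8 (13.4% and 15.6% of all genes), and with the replicate block within each fraction 15 and 15 (29.1% and 30.6%). RAB20, found on endosomes and phagosomes, rose from 2.46, 2.31, 2.32 and 2.41 CPM to 6.18, 6.17, 5.14 and 5.44 CPM (log2 fold change 1.27 ± 0.15 (SE), adjusted p = 1.55e-06). RAB3A, the synaptic vesicle RAB, rose from 2.06, 1.41, 1.70 and 1.19 CPM to 2.33, 3.23, 2.86 and 2.76 CPM (log2 fold change 0.82 ± 0.20 (SE), adjusted p = 0.00204). RAB39B, linked to X-linked intellectual disability, rose from 2.92, 3.72, 3.19 and 3.57 CPM to 4.97, 5.45, 7.21 and 4.91 CPM (log2 fold change 0.75 ± 0.20 (SE), adjusted p = 0.00567). All 4 libraries with CNOT1 siRNA were above all 4 controls for each of them. Among more abundant members, RAB31 fell from 83.4, 80.1, 79.1 and 92.04 CPM to 41.8, 43, 38.8 and 48.01 CPM (log2 fold change -0.96 ± 0.12 (SE), adjusted p = 3.52e-06). RAB15 fell from 15.2, 18.3, 16.9 and 17.6 CPM to 9.78, 11.8, 10.2 and 11.4 CPM (log2 fold change -0.65 ± 0.11 (SE), adjusted p = 4.40e-05). RAB1B, the member highest per kb of exon, fell from 157, 158, 148 and 139.5 CPM to 96.5, 107, 87.7 and 102 CPM (log2 fold change -0.62 ± 0.14 (SE), adjusted p = 0.00158). The groups did not overlap. RAB1A (-0.49), RAB18 (-0.57), RAB4A (-0.51) and RAB40B (-0.59) were among the other members that fell. RAB12 had 34.2, 38.3, 35.1 and 36.5 CPM with control siRNA and 28.7, 32.9, 27.7 and 30.4 CPM with CNOT1 siRNA. Its groups did not overlap, but it did not pass (log2 fold change -0.27 ± 0.13 (SE), adjusted p = 0.119), and it did with the replicate block within fraction (-0.27, adjusted p = 7.79e-04).

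In subpolysomal RNA, 16 members were higher and 6 lower with CNOT1 siRNA (17.7% and 24.3% of all genes), with a median of 0.18 where all genes had -0.06. RAB32, a RAB of melanosomes and other lysosome-related organelles, rose from 14.04, 17.1, 12.1 and 13.3 CPM to 26.9, 31.4, 34.2 and 31.6 CPM (log2 fold change 1.13 ± 0.11 (SE), adjusted p = 7.42e-08). RAB20 rose from 1.20, 1.49, 1.23 and 2.10 CPM to 2.48, 2.91, 3.66 and 3.93 CPM (log2 fold change 1.11 ± 0.18 (SE), adjusted p = 3.56e-05). RAB3D rose from 4.09, 5.10, 4.58 and 5.64 CPM to 7.49, 9.58, 9.94 and 8.56 CPM (log2 fold change 0.88 ± 0.12 (SE), adjusted p = 6.35e-06). The groups of these 3 did not overlap. RAB13 fell from 57.9, 68.1, 62.7 and 59.8 CPM to 42.4, 43.5, 47.02 and 44.6 CPM without overlap (log2 fold change -0.49 ± 0.08 (SE), adjusted p = 5.92e-05). RAB40B (36.1, 50.9, 50.2 and 47.4 CPM against 29.2, 37.6, 25.1 and 34.6 CPM, log2 fold change -0.54 ± 0.12 (SE), adjusted p = 0.0013) and RAB24, an autophagy RAB (3.86, 2.53, 3.02 and 2.34 CPM against 1.91, 1.57, 1.51 and 2.47 CPM, log2 fold change -0.67 ± 0.21 (SE), adjusted p = 0.0135), were called lower although their libraries overlapped. RAB24 was not called without subpolysomal control replicate 1 (0.077). RAB12 rose from 25.9, 32.04, 19.1 and 22.3 CPM to 31, 44.7, 27.6 and 30.4 CPM (log2 fold change 0.43 ± 0.14 (SE), adjusted p = 0.0153). The groups overlapped, yet RAB12 was higher with CNOT1 siRNA in 4 of 4 same-numbered pairs, and the call was lost without subpolysomal control replicate 3 (0.0592) or subpolysomal CNOT1 replicate 2 (0.105). Of the early endosome members, 5 of 7 rose (RAB20, RAB21, RAB22A, RAB5A and RAB5C) and none fell (17.7% and 24.3% of all genes), although the calls of RAB5A and RAB5C were each lost in 4 of 8 fits without 1 library. The counts were 9 higher and 4 lower with all 24 libraries (13% and 19.1% of all genes), 8 and 2 with only the 8 subpolysomal libraries in the fit (12.6% and 15.2%), and 23 and 10 with the replicate block within fraction (25.6% and 33.3% of all genes). Without subpolysomal control replicate 1 they were 10 and 4 (15.8% and 21.1% of all genes), and without subpolysomal CNOT1 replicate 2, 10 and 7 (16.1% and 22.8%).

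In polysomal RNA, 8 members were higher and 10 lower with CNOT1 siRNA (17.1% and 14.6% of all genes), with a median of -0.03 where all genes had 0.00. The balance over all genes depended on the fit. DESeq2 called 5 members higher and 13 lower (13.5% and 18.5% of all genes). The counts were the same from edgeR with RLE in place of TMM factors (13.2% and 18%) and without the low count filter (6% and 9.03%). With all 24 libraries as labelled edgeR called 0 members and 0 of all genes, while before adjustment 2 members had p below 0.05 with a higher level and 4 with a lower one. No other tool was run on that set. RAB20 had 4.22, 3.38 and 3.70 CPM in control replicates 1, 2 and 4 and 8.64, 9.47 and 7.84 CPM with CNOT1 siRNA (log2 fold change 1.20 ± 0.18 (SE), adjusted p = 2.52e-05). RAB36 had 16.1, 15.4 and 11.5 CPM and 25.4, 26.9 and 22.4 CPM (log2 fold change 0.80 ± 0.15 (SE), adjusted p = 2.99e-04). RAB3A had 2.59, 2.27 and 1.68 CPM and 3.84, 4.03 and 3.16 CPM (log2 fold change 0.75 ± 0.23 (SE), adjusted p = 0.0151). The 3 mRNAs were higher in every CNOT1 siRNA library of these replicates. RAB31 fell from 91.1, 91.5 and 102 CPM to 37.8, 38.8 and 49.6 CPM (log2 fold change -1.18 ± 0.15 (SE), adjusted p = 3.72e-06). RAB4A fell from 56.1, 57.97 and 55.8 CPM to 27.7, 32.7 and 33.4 CPM (log2 fold change -0.86 ± 0.15 (SE), adjusted p = 1.16e-04). RAB24 fell from 1.82, 1.29 and 1.16 CPM to 1.14, 0.702 and 0.64 CPM (log2 fold change -0.80 ± 0.29 (SE), adjusted p = 0.036). None of these groups overlapped, and RAB24 lay near 1 CPM. The libraries labelled replicate 3 ran opposite for RAB20 (7.71 CPM for the library labelled control siRNA and 2.42 CPM for the library labelled CNOT1 siRNA), RAB36 (20.96 and 12.5), RAB31 (34.2 and 88.1) and RAB4A (25.7 and 47.5). The log2 fold changes over all 24 libraries were 0.58 for RAB20, 0.45 for RAB36, 0.27 for RAB3A, -0.58 for RAB31, -0.47 for RAB4A, -0.59 for RAB24 and -0.14 for RAB12. RAB12 had 44.5, 48.8 and 45.01 CPM and 35.4, 35.2 and 39.9 CPM, without overlap but short of the threshold (log2 fold change -0.32 ± 0.16 (SE), adjusted p = 0.12), and it passed with the replicate block within fraction (-0.32, adjusted p = 7.58e-04), under which 14 members were higher and 15 lower (27.7% and 23.0% of all genes). RAB3A was not called without polysomal control replicate 4 (0.085) or polysomal CNOT1 replicate 2 (0.0586). RAB24 was not called without polysomal control replicate 1 (0.175) or 2 (0.0501) or polysomal CNOT1 replicate 2 (0.123) or 4 (0.143). The higher members went from 8 to 4 without polysomal control replicate 4 (13.3% of all genes higher).

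**Figure D4:**
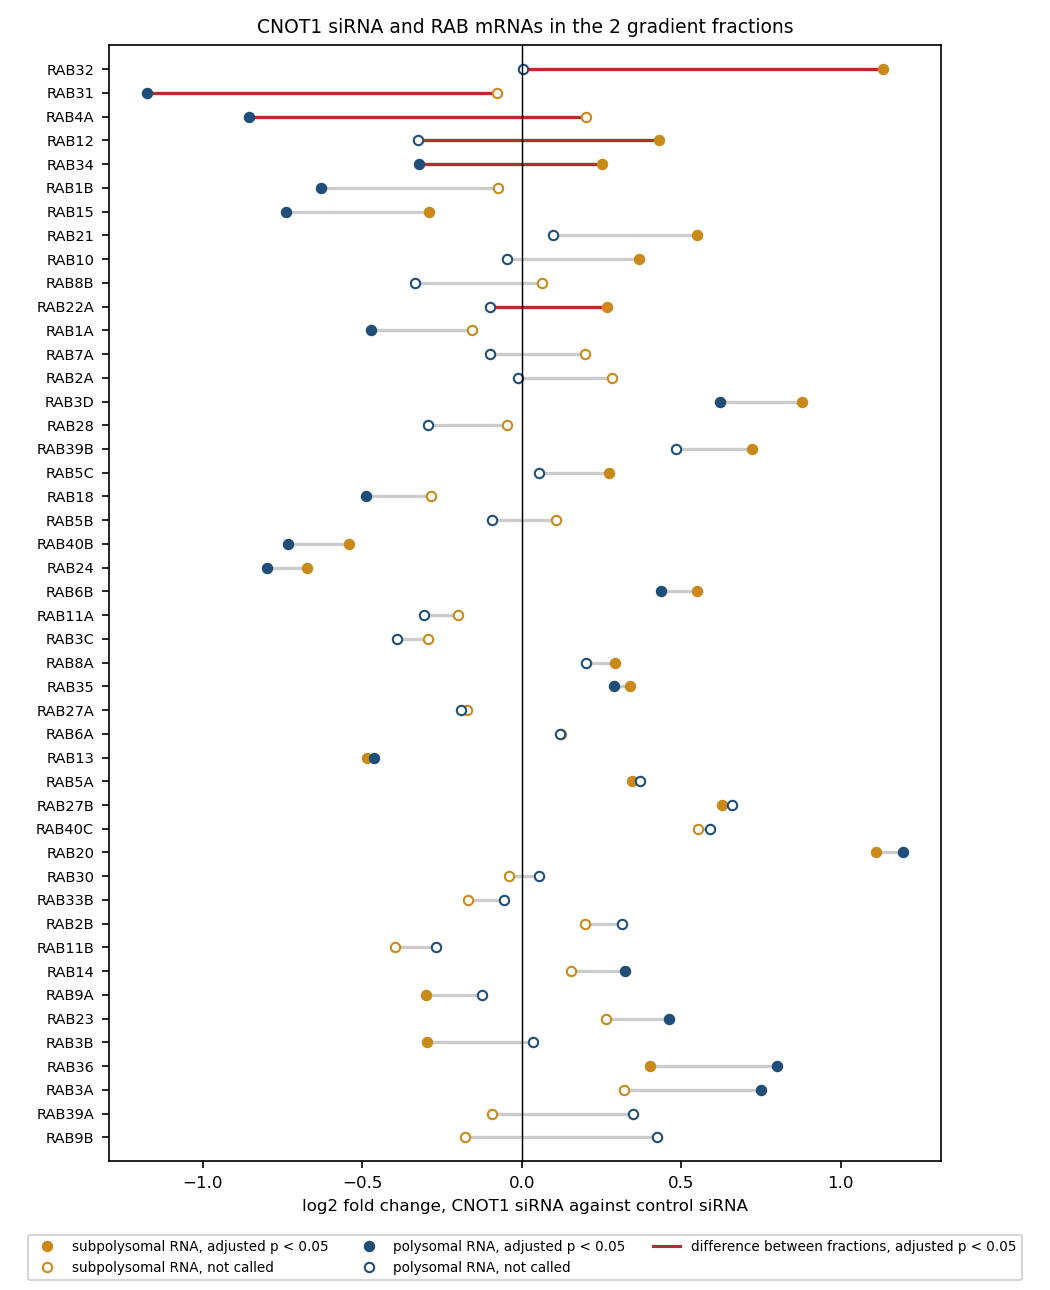
Log2 fold change of each RAB mRNA with CNOT1 siRNA against control siRNA in subpolysomal RNA (4 against 4 libraries) and polysomal RNA (3 against 3), joined by a line and ordered by the difference. Filled points have an adjusted p below 0.05, and red lines mark the 6 members whose difference between the fractions passed that threshold, with RAB32 at the top.

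The change in polysome association was tested directly as the log2 effect of CNOT1 siRNA on the polysomal pool less its effect on the subpolysomal pool. It was lower for 6 members and higher for 0 (edgeR, 7.51% and 9.99% of all genes), with a median of -0.11 where all genes had 0.07. At an unadjusted p below 0.05, 11 members were lower and 1 higher, as were 2166 and 2927 of all genes, and DESeq2 called 11 members lower and 0 higher (11.1% and 8.24% of all genes). With the replicate block within fraction the counts were 14 lower and 3 higher (15.8% and 21.1% of all genes), and with all 24 libraries 1 and 0 (2.4% and 3.26%).

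RAB32 had 14.04, 17.1, 12.1 and 13.3 CPM in subpolysomal control libraries and 26.9, 31.4, 34.2 and 31.6 CPM with CNOT1 siRNA, while its polysomal values were 30.8, 33.98 and 36.4 CPM and 29.6, 32.8 and 39.1 CPM (difference of log2 fold changes -1.13 ± 0.17 (SE), adjusted p = 1.01e-04). Its subpolysomal groups did not overlap and its polysomal groups did, and the difference was called with all 24 libraries as well (-1.15, adjusted p = 7.00e-04). RAB31 had 78.8, 98.6, 70.05 and 60.9 CPM and 66.5, 86.7, 66.1 and 73.2 CPM in subpolysomal RNA, where the groups overlapped and 3 of 4 same-numbered pairs were lower with CNOT1 siRNA, against the fall in polysomal RNA given above (difference of log2 fold changes -1.10 ± 0.19 (SE), adjusted p = 3.95e-04). RAB4A had 66.2, 92.05, 62.5 and 65.2 CPM and 81.5, 107, 64.5 and 75.2 CPM in subpolysomal RNA (difference of log2 fold changes -1.06 ± 0.19 (SE), adjusted p = 5.52e-04). Its groups overlapped, but 4 of 4 same-numbered pairs were higher with CNOT1 siRNA, and with the replicate block within fraction RAB4A was called higher in subpolysomal RNA (0.20, adjusted p = 0.00563). Neither RAB31 nor RAB4A was called for the difference with all 24 libraries (-0.50, 0.44 and -0.67, 0.162).

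RAB12, with log2 fold changes of -0.32 in polysomal and 0.43 in subpolysomal RNA, was called for the difference (difference of log2 fold changes -0.75 ± 0.21 (SE), adjusted p = 0.0141). It was -0.57 with all 24 libraries (adjusted p = 0.128) and -0.75 when only the 14 polysomal and subpolysomal libraries were fitted (0.0648). RAB34, a ciliary RAB (30.1, 37.7, 38.02 and 40.5 CPM and 41.5, 47.1, 41.5 and 43.9 CPM in subpolysomal RNA, 61.2, 63.8 and 59.2 CPM and 42.6, 51.6 and 53.2 CPM in polysomal RNA, difference of log2 fold changes -0.57 ± 0.14 (SE), adjusted p = 0.00611), and RAB22A (61.2, 66.2, 58.9 and 58.6 CPM and 69.5, 80.9, 77.1 and 67.7 CPM, then 45.7, 47.1 and 50.01 CPM and 42.4, 41.5 and 49.3 CPM, difference of log2 fold changes -0.37 ± 0.12 (SE), adjusted p = 0.0358) were the remaining members, and RAB34 (-0.40, 0.156) and RAB22A (-0.31, 0.178) were not called with all 24 libraries. In both the subpolysomal level was higher with CNOT1 siRNA without overlap, and the call of RAB22A was lost in 8 of 14 fits without 1 library. Without subpolysomal control replicate 2 the count of lower members was 12 in place of 6 (9.46% of all genes lower). The median ratio of the members above that of all genes was 0.52 ± 0.05 (SD, n = 3 gradients, 0.49 to 0.58) with CNOT1 siRNA, beside 0.71 ± 0.08 with control siRNA. The values of the gradients did not overlap, and with replicate 3 as labelled the means were 0.55 ± 0.07 and 0.73 ± 0.08 (n = 4).

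**Figure D5:**
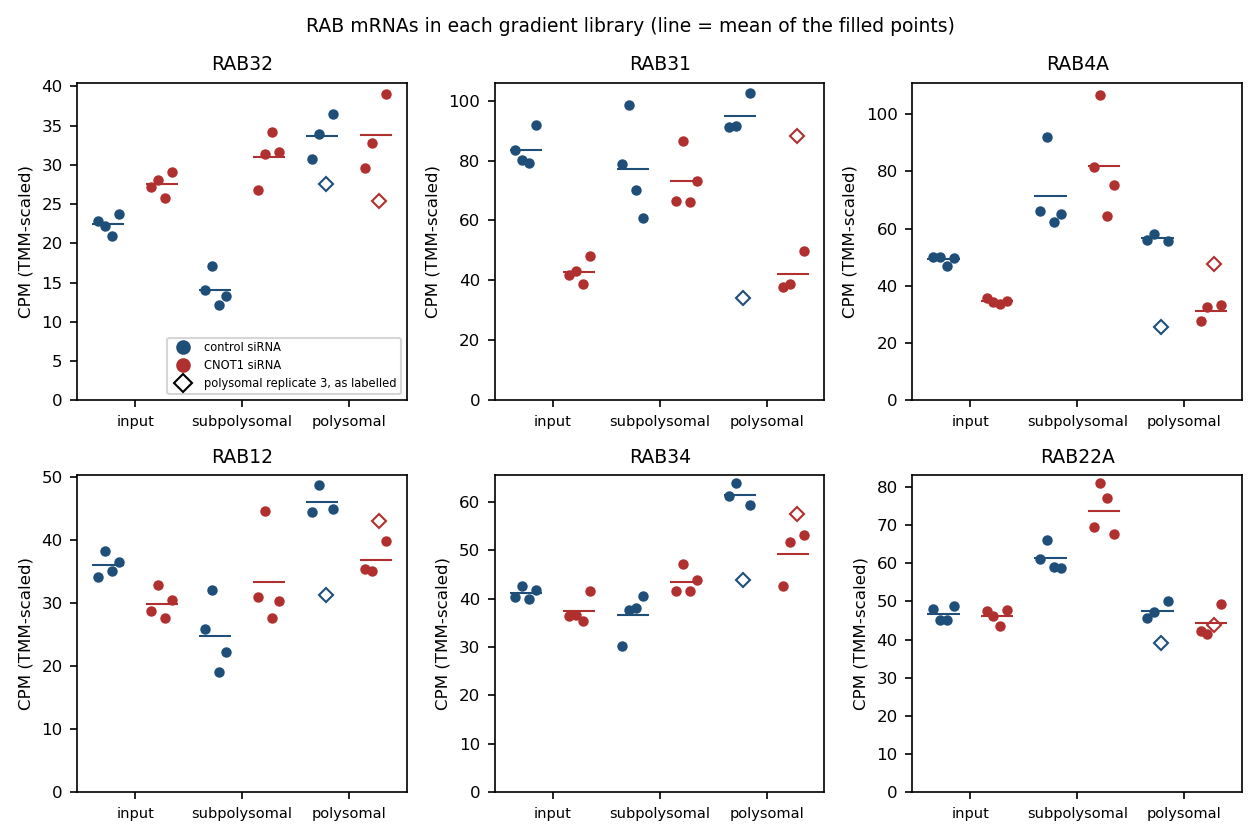
CPM of the 6 RAB mRNAs whose polysome association changed, in each gradient library (input, subpolysomal and polysomal RNA, axes from 0). Filled points are the libraries of the fit, lines are their means, and open diamonds are the polysomal libraries labelled replicate 3. RAB32 rises in subpolysomal RNA with CNOT1 siRNA, and RAB31 and RAB4A fall in polysomal RNA.

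After TNRC6A/B siRNA edgeR, fitted without a replicate block, called no member and none of the 14064 genes tested (0% and 0%). At an unadjusted p below 0.05, 0 members passed in either direction, as 173 of all genes did higher and 116 lower, and DESeq2 called 0 members but 6 genes higher and 2 lower. The members ranged from a log2 fold change of -0.65 (RAB39B) to 0.61 (RAB18), with a median of 0.09 where all genes had -0.03. RAB12 had 30.4 and 34.4 CPM with control siRNA and 46.3 and 48.1 CPM with TNRC6A/B siRNA. Its 2 libraries per group did not overlap (log2 fold change 0.54 ± 0.22 (SE), adjusted p = 1). With the replicate number as a block, edgeR called 3 members higher (RAB12, RAB18 and RAB23) and 0 lower, beside 3.7% and 1.73% of all genes. The labels do not say whether the numbers mark a shared batch.

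The genes that act on RAB proteins were taken from a list of 132 regulators and effectors. In the eIF4A2 IP, 43 of the 125 tested were higher and 22 lower (24.5% and 25.8% of all genes), including 14 GEFs of 35 higher and 4 lower, and 18 GAPs of 38 higher and 7 lower. TBC1D14 (2.39) and TBC1D16 (2.00), both entered in the list as GAPs, and the GEF DENND4B (1.95) were highest. The RAB9 effector PLIN3 (-2.24), the endosomal tether EEA1 (-1.92), a RAB5 effector, and RABAC1 (-1.69), which helps RABs off their GDI, were lowest. TBC1D14 (1.66), DENND4B (1.53) and DENND5A (1.27) were highest in the DDX6 IP, where 33 were higher and 23 lower (22.7% and 23.3% of all genes), and EEA1 (-1.68), GDI2 (-1.68) and PLIN3 (-1.48) lowest. The eIF4A1 IP had 41 higher and 25 lower (26.1% and 26.5% of all genes). Directly, the eIF4A2 IP exceeded the eIF4A1 IP for 1 of these genes, the RAB5 GEF GAPVD1 (1.35), with 0 lower (0.973% and 0.0858% of all genes), and the DDX6 IP for 10, with 6 lower (9.82% and 11.3%). In polysomal against subpolysomal RNA 50 of 124 were higher and 27 lower (33.7% and 38.4% of all genes), with PLIN3 (2.21) and GDI2 (1.44) at the top and the GAP USP6NL (-1.74) and RABGGTB (-1.40), a subunit of the enzyme that prenylates RABs, at the bottom. With CNOT1 siRNA, 38 rose and 16 fell in input RNA (19.6% and 21.1% of all genes), 36 and 16 in subpolysomal (17.7% and 24.3%) and 35 and 13 in polysomal RNA (17.1% and 14.6%). Against the same shares of all genes, GEFs were 13 higher and 1 lower of 34 in input RNA, and of the 8 prenylation and GDI genes none rose and 4 fell in input RNA. TBC1D5, a GAP for RAB7, fell in input (-1.07) and polysomal RNA (-1.06). UNC13D, a RAB27 effector of granule release, rose in polysomal RNA (1.90) and likewise in input RNA. The polysome association was higher for 12 and lower for 5 of the 124 (9.99% and 7.51% of all genes). Of the 124, with all 24 libraries, 0 were called for CNOT1 siRNA in polysomal RNA, 4 for the polysome association and 75 for polysomal against subpolysomal RNA, both directions together.

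RAB mRNAs are short in their coding part and long in their 3′UTR. The median coding sequence had 649.5 nt against 1444.5 nt in 12532 mRNAs tested, and the median 3′UTR 2485.5 nt against 1362 nt. The median GC content of the 5′UTR was 70.9% against 67.2%, and purine tetramers occurred at 1.69 per 100 nt of 5′UTR against 1.65. Across the members, the log2 fold change in the eIF4A2 IP went with GC content of the 5′UTR (r = 0.50, rho = 0.41, n = 46, against 0.16 and 0.18 over 12354 genes) and of the coding sequence (r = 0.50, rho = 0.43, against 0.23 and 0.23) and against the density of purine tetramers in the coding sequence (r = -0.48, rho = -0.43, against -0.24 and -0.24). In the 5′UTR the relation to tetramers was r = -0.35 and rho = -0.38, against -0.08 and -0.06. The DDX6 IP gave like values for GC content of the 5′UTR (r = 0.48, rho = 0.45) and of the coding sequence (0.43 and 0.41) and for coding tetramers (-0.40 and -0.38), and the direct contrast of eIF4A2 with DDX6 IP had r = 0.22 and rho = 0.08 with 5′UTR GC content. Annotated 5′UTRs of RAB12 (3 bases, 100% GC), RAB8A (13 bases, 38.5%) and RAB8B (19 bases, 68.4%) enter these relations. Without genes whose 5′UTR is under 30 bases (n = 43 members, chosen after the data were seen), 5′UTR GC content had r = 0.41 and rho = 0.33 with the eIF4A2 IP, 0.42 and 0.41 with the DDX6 IP and 0.12 and -0.02 with their contrast, and 5′UTR tetramers had -0.22 and -0.28 with the eIF4A2 IP. The shift in polysome association with CNOT1 siRNA had r = -0.42 and rho = -0.43 with 5′UTR GC content, against -0.15 and -0.16 over 12511 genes. It had -0.42 and -0.42 over those 43 members, and -0.35 and -0.38 over 46 with all 24 libraries. Of 39 relations computed, these are among the larger, and they are descriptions over genes with shared libraries and correlated base composition.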

How the data were processed

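Poly(A) RNA of HEK293 cells was sequenced as stranded libraries. The authors aligned reads with TopHat2 to hg19, counted them per gene with HTSeq and deposited the raw counts used here (the strand option was not stated, and the notes also name bcl2fastq 2.0). A deposited table of the authors' own IP comparisons (fold changes, log CPM, likelihood ratios, p-values, FDR) was not used. No data column belonged to an unknown sample.

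Counts were tested with edgeR 4.0.16 (R 4.3.3, TMM, filterByExpr, quasi-likelihood F-test) in one fit per experiment, on all genes, with Benjamini-Hochberg adjusted p below 0.05 as the call. SE was the log2 fold change divided by the root of F. CPM of single libraries were TMM-scaled, label checks included, except the marker check and the selection, which used library totals. Levels were divided by the union of exons. Alternatives were DESeq2 1.42.0, RLE factors, no low count filter, a replicate block, only the compared libraries, all 24 gradient libraries and leaving out each library. The code was tested on simulated data. Gradient ratios used a pseudocount of 0.5 CPM.

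Same-numbered RIP libraries deviated together (r from 0.173 to 0.884). Control and CNOT1 siRNA libraries did so within input (0.127 to 0.587), subpolysomal (0.749 to 0.869) and polysomal RNA (0.438 to 0.763). These were taken as paired by their labelled numbers in the alternatives with a block and in the counts of pairs. The main fits used group means without a block. Polysomal and subpolysomal control libraries did not deviate together (-0.678 to 0.282). The block within fraction was therefore added after the data were seen.

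RAB12 was named in each comparison, with the 3 called members that rose most and the 3 that fell most, and up to 3 list genes each way. Members, roles and the list of RAB regulators were chosen with earlier results of these data known. Sequences and overlaps came from GRCh37 with GENCODE release 44 lifted to it. Total counts set the precision, with 15.35 M to 46.02 M (M, 1e6) per library, and between-replicate spread exceeded counting error for every pair.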

Additional observations from a re-analysis of the deposited data

Results flagged for a closer look

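Of 59 groups of 4 libraries examined for the named members, 3 held a library far from the others by Dixon's criterion, where chance gives about 1 in 20 groups. In polysomal RNA labelled control siRNA, replicate 3 held 34.24 CPM of RAB31, against 91.12 to 102.5 CPM in the other libraries. The same library held 25.72 CPM of RAB4A, against 55.78 to 57.97 CPM. It is the library whose CNOT1 level runs against its label. In subpolysomal RNA with control siRNA, replicate 2 held 92.05 CPM of RAB4A, against 62.45 to 66.19 CPM.

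The effect of CNOT1 siRNA differed between polysomal and subpolysomal RNA for 6 members by the test of the difference itself (edgeR, adjusted p below 0.05 over all genes). The differences in log2 fold change, polysomal minus subpolysomal, were -1.1277 for RAB32, -1.0991 for RAB31, -1.0561 for RAB4A, -0.754 for RAB12, -0.5722 for RAB34 and -0.3688 for RAB22A. With all 24 libraries as labelled RAB32 was called and the other 5 were not.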

How the results depend on the processing

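No called member changed sign under any alternative run, and of 196 calls of a member in a comparison 58 were lost in at least 1 fit that left out a library. Counts of called members moved by more than 1.5 times as follows. DESeq2 gave 1 lower member for eIF4A2 against eIF4A1 IP (0 in the fit reported), 5 higher for CNOT1 siRNA in polysomal RNA (8) and 11 lower for the polysome shift (6). RLE factors gave 5 higher in polysomal RNA. For CNOT1 siRNA in polysomal RNA, DESeq2 and RLE factors each gave 13 lower members (10). Of all genes, 13.5% were higher and 18.5% lower with DESeq2, and 13.2% and 18% with RLE factors. These shares were 17.1% and 14.6% in the fit reported. Without the low count filter there was 1 lower for eIF4A2 against eIF4A1 IP, 2 higher for eIF4A2 against DDX6 IP (1) and 5 higher in polysomal RNA. With the replicate block there were 9 lower for eIF4A2 against eIF4A1 IP, and 2 higher and 24 lower (13) for eIF4A2 against DDX6 IP. In the TNRC6 experiment same-numbered libraries also deviated together (r = 0.929 in both pairs). With only 2 libraries per group both pairs give the same value, and the labels do not say what the numbers mark. There edgeR with the replicate block called 3 members higher (RAB12 at 0.55, adjusted p = 0.0299, RAB18 and RAB23) beside 520 genes higher and 243 lower (3.7% and 1.73%). With the replicate block within fraction there were 10 lower (6) in subpolysomal RNA, 14 higher in polysomal RNA, and 3 higher (0) and 14 lower for the shift. With all 24 libraries there were 9 higher (16) in subpolysomal RNA, 0 higher and 0 lower (10) in polysomal RNA and 1 lower for the shift. With only the compared libraries there were 8 higher and 2 lower in subpolysomal RNA.

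Leaving out 1 library gave 3 to 7 lower members in the DDX6 IP, 0 to 1 higher and 2 to 16 lower for eIF4A2 against DDX6 IP, 10 to 20 higher in subpolysomal RNA, 4 to 7 higher in polysomal RNA, and 0 to 1 higher and 5 to 12 lower for the shift. For eIF4A2 against DDX6 IP, 4.07% to 10.6% of all genes were lower in these fits. Of the list of RAB regulators, the calls in both directions were 3 with DESeq2, 4 without the filter and 12 with the block for eIF4A2 against eIF4A1 IP (1), and 27 with DESeq2, 47 with the block and 5 to 18 without 1 library for eIF4A2 against DDX6 IP (16). They were 83 with the block within fraction in input RNA (54), 30 with only the compared libraries in subpolysomal RNA (52), and 0 with all 24 libraries and 81 with the block within fraction in polysomal RNA (48). For the shift (17) they were 4 with all 24 libraries, 8 with only the compared libraries and 58 with the block within fraction, and for TNRC6 (0) they were 9 with the block. The cause was not tested. Members near 1 CPM, such as RAB24, rest on few counts, and the TNRC6 groups have 2 libraries each.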
